A study of Mus musculus with 6 samples.

Results

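Radial glia and neural stem cell markers were compared between mouse embryonic neural stem cells that lack Pml and WT cells. The set holds 9 genes: Nes, Vim, Fabp7, Prom1, Hopx, Pdpn, Msi1, Msi2 and Rest. The set was drawn up with earlier results of these data known. Its members were found by gene symbol, and all 9 have a row among the 24421 gene symbols of the deposited count table. Of these, 8 had enough reads to be tested and Msi1 did not. The Pml knockout group (genotype PML knockout, 3 libraries) and the WT group (3 libraries) were primary cells from E13.5 embryonic brain, kept as floating neurospheres with 20 ng/ml epidermal growth factor and 20 ng/ml fibroblast growth factor 2 in 20% oxygen. Both groups were lysed on day 4 after the spheres were dissociated. All 6 libraries carry the same batch label. The labels give the strain, the deleted part of Pml and the number of embryos for neither group. They number the replicates without saying whether these were separate cultures, so p-values measure the spread between these 6 libraries, which may be technical.

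Radial glia are the stem cells of the embryonic brain: their long fibres span the wall of the neural tube, guide migrating neurons, and the cells divide to give neurons and later glia. Their cytoskeleton rests on the intermediate filament proteins nestin and vimentin, and their cytoplasm carries the brain lipid-binding protein Fabp7, a target of Notch signalling. Musashi RNA-binding proteins and the repressor REST are known for holding back neuronal differentiation in progenitors. Neurospheres grown in epidermal and fibroblast growth factor are mixtures of such progenitors and more committed cells.

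The promoters shown are those of the members with the largest fitted differences, Fabp7 and Hopx, and of the intermediate filament genes Nes and Vim for contrast. RefSeq starts on GRCm38.p6 were found for 7 of the 9 members, and each line gives the 250 bases before a start, read 5′ to 3′ on the gene's strand. These starts differ from the gene positions given below, which come from another annotation. By those positions the Vim window and the second Hopx window lie wholly inside the gene. The Fabp7 and Nes windows run past the gene start. Capitals mark the core of the RBPJ site (TGGGAA, the DNA element of Notch target genes) and the CCAAT box (CCAAT), each searched on both strands.
Fabp7, chr10:57784673-57784922, plus strand: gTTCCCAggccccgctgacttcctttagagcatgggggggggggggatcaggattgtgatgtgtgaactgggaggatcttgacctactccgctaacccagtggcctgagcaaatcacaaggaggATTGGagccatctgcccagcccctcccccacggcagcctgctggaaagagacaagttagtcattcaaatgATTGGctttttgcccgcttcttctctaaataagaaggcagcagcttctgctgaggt
Hopx, first start, chr5:77115124-77115373, minus strand: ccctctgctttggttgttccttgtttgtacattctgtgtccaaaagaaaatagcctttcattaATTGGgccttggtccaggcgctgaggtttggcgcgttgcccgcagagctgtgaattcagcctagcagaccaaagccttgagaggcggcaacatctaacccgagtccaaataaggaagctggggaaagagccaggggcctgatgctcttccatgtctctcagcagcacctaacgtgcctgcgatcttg
Hopx, second start, chr5:77095268-77095517, minus strand: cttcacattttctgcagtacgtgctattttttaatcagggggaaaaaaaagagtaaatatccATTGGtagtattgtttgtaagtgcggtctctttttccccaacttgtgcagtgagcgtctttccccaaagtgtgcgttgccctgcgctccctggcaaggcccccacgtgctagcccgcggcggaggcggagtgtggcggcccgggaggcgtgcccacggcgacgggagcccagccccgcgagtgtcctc
Nes, chr3:87970843-87971092, plus strand: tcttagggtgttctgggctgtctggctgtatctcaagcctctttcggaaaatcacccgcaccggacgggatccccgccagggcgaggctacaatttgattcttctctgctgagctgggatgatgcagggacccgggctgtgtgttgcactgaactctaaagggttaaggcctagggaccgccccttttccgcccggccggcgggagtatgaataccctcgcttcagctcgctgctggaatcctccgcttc
Vim, chr2:13574061-13574310, plus strand: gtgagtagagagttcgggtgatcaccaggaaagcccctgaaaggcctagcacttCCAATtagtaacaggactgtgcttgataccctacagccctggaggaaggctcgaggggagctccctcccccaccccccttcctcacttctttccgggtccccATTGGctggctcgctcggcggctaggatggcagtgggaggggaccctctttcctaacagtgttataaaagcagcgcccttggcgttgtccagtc
The RBPJ core occurred once before Fabp7, on the opposite strand and 249 bases before the start, and once before 1 of 2 starts of Prom1, 116 bases before it. It did not occur before any start of Hopx, Nes, Vim, Pdpn or Msi2. It was found before 21.6% of all 32851 RefSeq starts in windows of the same length. The CCAAT box occurred 2 times before Fabp7, 2 times before Vim, once before each Hopx and Msi2 start, once before 1 start of Prom1, and not before Nes or Pdpn, and 33.8% of all starts had one. These are matches of letters only.

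Libraries held 4980638 to 5917505 reads in the knockout and 1775152 to 4413318 in WT. Reads on Rn45s, the precursor of ribosomal RNA, made up 14.6% to 17.6% of the knockout libraries, against 41.9%, 39.8% and 19.6% in WT replicates 1, 2 and 3. Summed hepatocyte markers, 34 genes, stood at 114 to 161 CPM (counts scaled to library size by TMM factors) in the knockout libraries and at 756, 1284 and 228 CPM in WT replicates 1, 2 and 3. WT replicates 1 and 2 stood apart from the other 4 libraries on both measures. Pml (ENSMUSG00000036986.16) had 14, 23 and 5 reads in the knockout libraries and 36, 35 and 44 in WT, with a log2 fold change of -2.81 (SE 0.661, edgeR adjusted p 0.197), so its lower level did not pass. A tag outside the deleted part would not check the label. As for the cell type label, the radial glia genes Sox2, Sox9, Pax6, Hes1, Hes5, Slc1a3 and Nr2e1 were read in every library, with 8 reads as the fewest in any of them. These genes were picked after their values were seen, so their reads are no independent check of the label.

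No member passed the threshold between genotypes, a Benjamini-Hochberg adjusted p under 0.05 in edgeR's quasi-likelihood test over all 11317 tested genes. With this spread between libraries most 2-fold differences would miss the threshold, so a member that was not called is not shown to be alike in both genotypes. Among the 8 tested members 0 were called higher, where 0.00884% of all genes were, and 0 were called lower, where 0% were. DESeq2 also called 0 members, with 0.928% of genes called higher and 1.97% lower, and the edgeR exact test 0, with 1.31% and 1.86%. At an unadjusted p under 0.05 there were 2 members higher, Fabp7 and Hopx, and 0 lower, against 6.7% and 9.19% of all genes. The fitted level was higher in the knockout for 6 of the 8, against 49.7% of all genes, and lower for 2, against 50.3%. The count of members higher was 3 without knockout replicate 1 and 4 without WT replicate 3. The median log2 fold change of the 8 was 0.07, beside -0.01 over all tested genes, and the median size of the change was 0.46 beside 0.44. The authors' deposited table gave none of the 8 members an adjusted p under 0.05. Among its 12349 genes with a p-value, 139 were higher and 224 lower at that threshold.

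**Figure D1:**
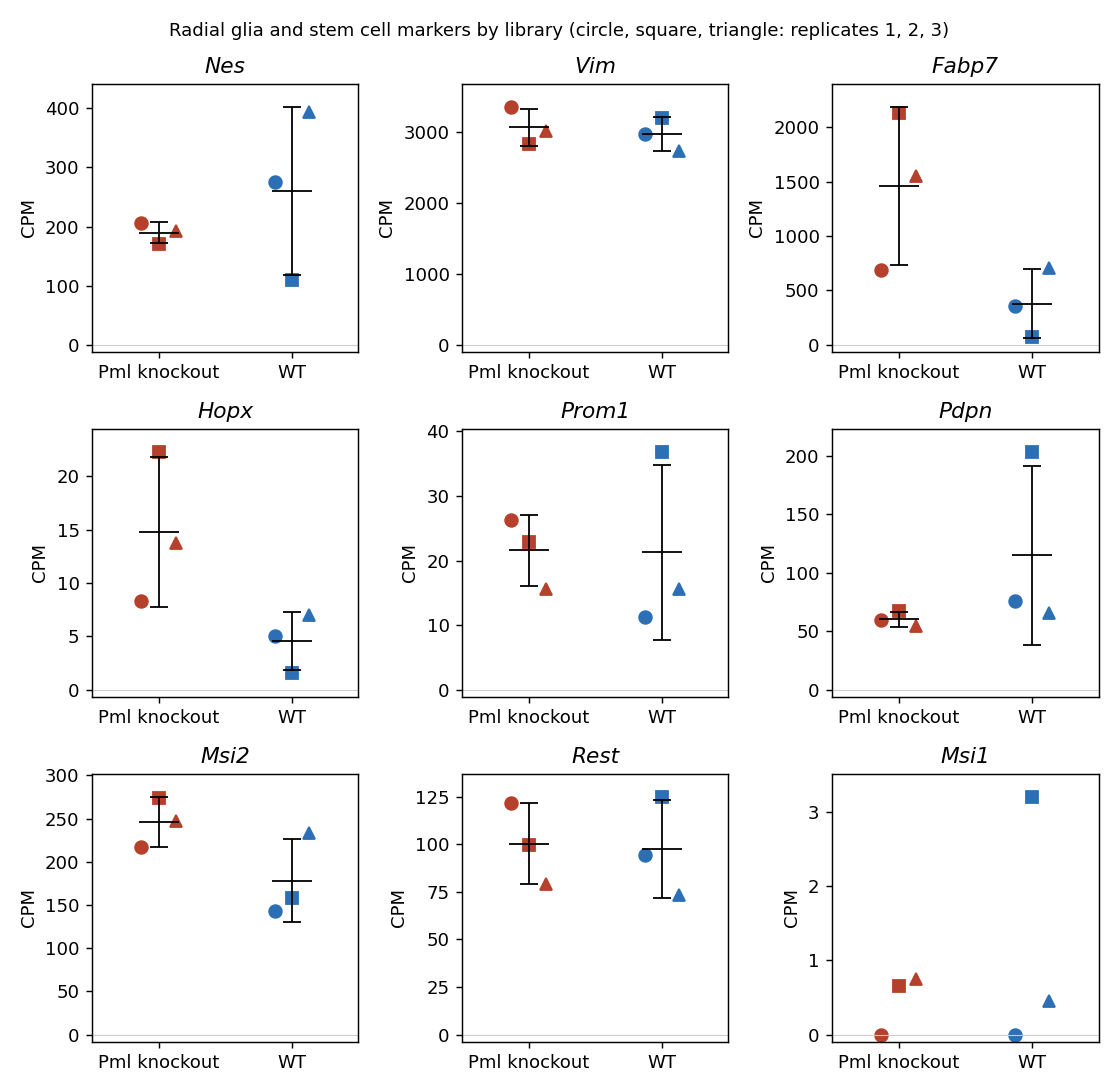
Level of each of the 9 genes in CPM (vertical axes, linear) in the 3 Pml knockout libraries and the 3 WT libraries; points are libraries, and bars give mean ± SD, left out for Msi1, which had at most 5 reads. Hopx is the gene whose groups do not overlap, and Fabp7 spans 689 to 2132 CPM in the knockout libraries and 73.5 to 708 CPM in WT.

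Fabp7, the fatty acid-binding protein of radial glia (ENSMUSG00000019874.11, chromosome 10, 57784881 to 57788450, plus strand, GRCm38), had the largest fitted difference of the set. It had 4580, 12927 and 10374 reads in knockout replicates 1, 2 and 3, against 1184, 92 and 3120 in WT replicates 1, 2 and 3. These reads correspond to 689, 2132 and 1547 CPM in the knockout libraries and 352, 73.5 and 708 CPM in WT. Knockout replicates 2 and 3 lay above every WT library, while knockout replicate 1 lay just below WT replicate 3, so the groups overlapped. The level averaged 1456 ± 726 CPM in the knockout and 378 ± 318 CPM in WT (SD, n = 3 each), 3.85-fold higher, with a log2 fold change of 1.94 (SE 0.682). The unadjusted p was 0.0173 and the edgeR adjusted p 0.240, so the difference did not pass. Fabp7 passed in 2 of 20 alternatives: voom with library quality weights (adjusted p 0.00874) and without WT replicate 3 (log2 fold change 2.77, edgeR adjusted p 0.0272). Both settings called many genes: weighted voom 1242 of 11317 tested, and the fit without WT replicate 3 1526 of 11756. The weights were 1.62, 0.392 and 0.353 for WT replicates 1, 2 and 3, and without WT replicate 3 the WT group holds the libraries with high Rn45s shares. Set against WT replicate 3 alone, which is then assumed to vary like the knockout libraries, the log2 fold change was 1.03. The part of Rn45s and hepatocyte reads in the difference was not tested. In bulk RNA, fewer cells of a type and less RNA per cell cannot be told apart. In the authors' deposited table Fabp7 had a log2 fold change of 1.95 and an adjusted p of 0.0604.

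Hopx encodes a small homeodomain-only protein without DNA binding, a marker of outer radial glia in human cortex and of quiescent stem cells in mouse tissues (ENSMUSG00000059325.14, chromosome 5, 77086988 to 77115121, minus strand). It had 55, 135 and 92 reads in knockout replicates 1, 2 and 3 and 17, 2 and 31 in WT replicates 1, 2 and 3. In CPM these were 8.27, 22.3 and 13.7 in the knockout and 5.06, 1.60 and 7.04 in WT. All 3 knockout libraries stood above all 3 WT libraries, though knockout replicate 1 was close to WT replicate 3. Groups did not overlap in this direction for 12.3% of all tested genes, and for 1 of the 8 members. The means were 14.8 ± 7.05 CPM in the knockout and 4.57 ± 2.75 CPM in WT (SD, n = 3 each), a log2 fold change of 1.56 (SE 0.547), with an unadjusted p of 0.0169 and an edgeR adjusted p of 0.240. The change did not pass in any of 20 alternatives, where it ran from 1.06 to 1.96 on the log2 scale. The authors' deposited table gave Hopx a log2 fold change of 1.58 and an adjusted p of 0.0821. An antisense gene, Hopxos, overlaps exons of Hopx, and without a stated strand setting their reads cannot be told apart.

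Nes encodes nestin, the intermediate filament protein used most widely to mark neural stem cells (ENSMUSG00000004891.16, chromosome 3, 87971078 to 87980451, plus strand). It had 205, 171 and 193 CPM in knockout replicates 1, 2 and 3 and 276, 110 and 393 CPM in WT replicates 1, 2 and 3. The 3 knockout libraries lay close together and inside the range of the WT libraries, which held both the lowest and the highest value. The means were 190 ± 17.3 CPM in the knockout and 260 ± 142 CPM in WT (SD, n = 3 each), with a log2 fold change of -0.46 (SE 0.396, edgeR adjusted p 0.585). Which WT libraries entered decided this value. It was -1.05 against WT replicate 3 alone, a fit in which the spread of WT libraries cannot be measured. It was -0.81 (edgeR adjusted p 0.169) without WT replicate 2 and -0.02 (0.973) without WT replicate 3.

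Vim encodes vimentin, the filament protein with which nestin copolymerizes (ENSMUSG00000026728.9, chromosome 2, 13573927 to 13582826, plus strand). It was the most even gene of the set, with 3354, 2842 and 3018 CPM in knockout replicates 1, 2 and 3 and 2983, 3210 and 2731 CPM in WT replicates 1, 2 and 3. The groups overlapped, and the coefficient of variation was 8.46% in the knockout and 8.06% in WT. The log2 fold change was 0.05 (SE 0.276, edgeR adjusted p 0.949).

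The ratio of nestin to vimentin reads, which needs no scaling between libraries, was 6.12, 6.02 and 6.40 Nes reads per 100 Vim reads in knockout replicates 1, 2 and 3. It was 9.24, 3.44 and 14.4 in WT replicates 1, 2 and 3. The knockout ratios were nearly equal and lay between those of the WT libraries. The mean log2 ratio was -4.02 ± 0.0454 in the knockout and -3.70 ± 1.06 in WT (SD, n = 3 each), a difference of -0.32 between knockout and WT. An exact two-sided permutation test over the 6 libraries gave p = 0.7, where 0.1 is the smallest p this design allows. The difference was -0.90 without WT replicate 2 and -1.22 against WT replicate 3 alone, and turned to 0.13 without WT replicate 3.

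Prom1 encodes prominin-1 (CD133), a membrane protein of apical protrusions and cilia of neuroepithelial cells (ENSMUSG00000029086.15, chromosome 5, 43993620 to 44102032, minus strand). It had 175, 139 and 104 reads in knockout replicates 1, 2 and 3 and 38, 46 and 69 in WT replicates 1, 2 and 3. As levels these were 26.3, 22.9 and 15.5 CPM in the knockout and 11.3, 36.8 and 15.7 CPM in WT. WT replicate 2 was the highest library and WT replicate 1 the lowest, so the groups overlapped throughout, and the log2 fold change was 0.09 (SE 0.453, edgeR adjusted p 0.942). An antisense gene, Gm16401, overlaps exons of Prom1 and may share reads with it.

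Pdpn encodes podoplanin, a mucin-like membrane glycoprotein that ties to the cortical cytoskeleton through ezrin and moesin (ENSMUSG00000028583.14, chromosome 4, 143267431 to 143299564, minus strand). It had 59.3, 66.9 and 54.0 CPM in knockout replicates 1, 2 and 3 and 75.9, 203 and 65.6 CPM in WT replicates 1, 2 and 3. WT replicate 2 stood far above the other 5 libraries, and knockout replicate 2 lay just above WT replicate 3. The means were 60.1 ± 6.51 CPM in the knockout and 115 ± 76.6 CPM in WT (SD, n = 3 each), with a log2 fold change of -0.92 (SE 0.413), an unadjusted p of 0.0504 and an edgeR adjusted p of 0.315. Without WT replicate 2 the log2 fold change was -0.22 (edgeR adjusted p 0.667), and against WT replicate 3 alone it was -0.13.

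Msi2 encodes Musashi-2, an RNA-binding protein that controls translation in stem cells (ENSMUSG00000069769.13, chromosome 11, 88339382 to 88718513, minus strand). It had 1443, 1663 and 1658 reads in knockout replicates 1, 2 and 3 and 480, 198 and 1027 in WT replicates 1, 2 and 3. The levels were 217, 274 and 247 CPM in the knockout and 143, 158 and 233 CPM in WT. WT replicates 1 and 2 lay below the knockout libraries, and WT replicate 3 lay among them. The means were 246 ± 28.6 CPM in the knockout and 178 ± 48.3 CPM in WT (SD, n = 3 each), with a log2 fold change of 0.47 (SE 0.274, edgeR adjusted p 0.423). Against WT replicate 3 alone it was 0.07.

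Msi1, the gene of Musashi-1 (ENSMUSG00000054256.11, chromosome 5, 115429599 to 115455698, plus strand), is widely used as a marker of neural progenitors but was almost without reads. It had 0, 4 and 5 reads in knockout replicates 1, 2 and 3 and 0, 4 and 2 in WT replicates 1, 2 and 3. A count of 0 allows up to 0.450 CPM in knockout replicate 1 and 0.891 CPM in WT replicate 1, by counting error only. Msi1 did not pass the filter, and no fold change is given. A 3′ tag library reads the transcript end, so a count near 0 depends on where the annotated end lies and does not show that the gene was silent.

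Rest encodes the zinc-finger repressor that binds the RE1 element of neuronal genes and recruits the CoREST and Sin3 histone deacetylase complexes (ENSMUSG00000029249.15, chromosome 5, 77265491 to 77286432, plus strand). It had 122, 99.4 and 79.4 CPM in knockout replicates 1, 2 and 3 and 94.3, 125 and 73.5 CPM in WT replicates 1, 2 and 3. The knockout libraries lay within the range of the WT libraries, with means of 100.2 ± 21.3 CPM in the knockout and 97.5 ± 25.7 CPM in WT (SD, n = 3 each). The log2 fold change was 0.05 (SE 0.291, edgeR adjusted p 0.951).

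**Figure D2:**
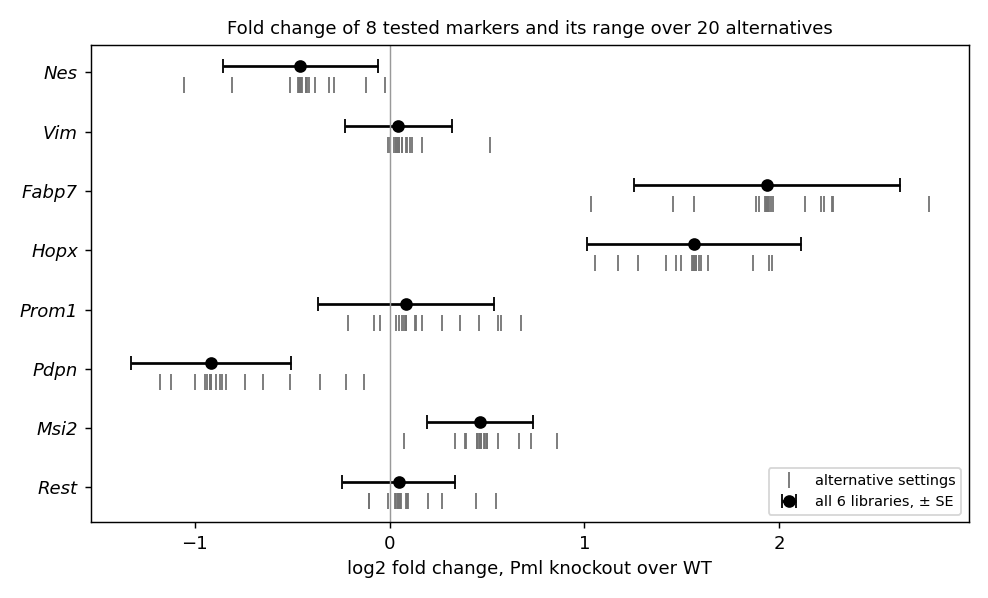
Log2 fold change of the 8 tested genes, Pml knockout over WT (horizontal axis), from edgeR with all 6 libraries (points, bars ± SE), with the values under 20 alternative settings as grey ticks. Fabp7 and Hopx stay above 1 in every alternative, while Vim, Prom1 and Rest lie on both sides of 0.

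The profiles of the members differed across the 6 libraries. Likeness was measured as the root mean square distance between log2 CPM profiles, each centred on the gene's own mean. This distance also depends on how strongly each gene varied, so it cannot show by itself whether genes varied together. Fabp7 and Hopx, each with its lowest value in WT replicate 2 and its highest in knockout replicate 2, were 0.52 apart, although their profiles had standard deviations of 1.73 and 1.20. Fabp7 and Pdpn were the farthest pair at 2.17, and Vim and Rest the nearest at 0.21. The Vim and Rest profiles were flatter, with standard deviations of 0.11 and 0.31. In WT replicate 2 the centred log2 level was -3.00 for Fabp7, -1.95 for Hopx and -0.91 for Nes, and 1.38 for Pdpn and 0.87 for Prom1. In WT replicate 3, with an Rn45s share near that of the knockout libraries, it was 0.92 for Nes, 0.26 for Fabp7 and -0.07 for Hopx.

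**Figure D3:**
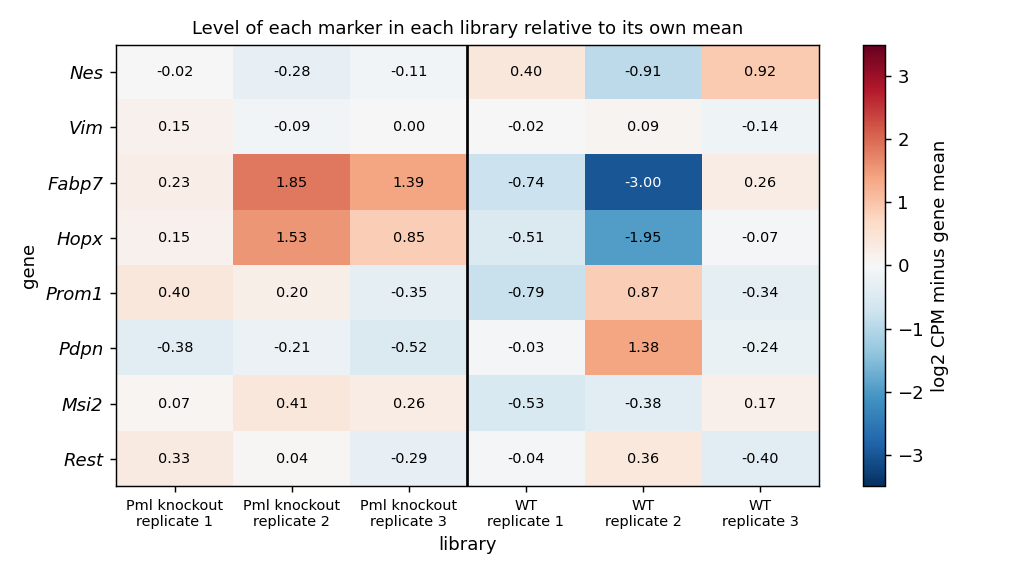
Log2 CPM of the 8 tested genes (rows) in each library (columns, Pml knockout left of the line and WT right of it) minus the gene's mean over the 6 libraries, with the value in each cell. WT replicate 2 holds the lowest value of Fabp7 (-3.00), Hopx and Nes and the highest of Pdpn (1.38), Prom1 and Rest.

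The genes with the nearest profiles were taken from 6137 tested genes with a mean of at least 20 CPM. Nearest to Fabp7 were Flcn, Ndufa1 and Zcchc14 at distances of 0.25, 0.38 and 0.38. Nearest to Hopx were Dlgap1, Fat1 and the Notch receptor gene Notch3 at 0.24, 0.25 and 0.27. Nes was nearest to the nucleoporin gene Nup85 (0.08), the kinetochore gene Spc24 (0.08) and the shugoshin gene Sgol1 (0.10), which protects centromeric cohesion. Vim was nearest to Pak2, Brd8 and Paip1 (0.05, 0.05 and 0.07), and Msi2 to Nfia, Zdhhc21 and Mapk8 (0.06, 0.07 and 0.08). Pdpn was nearest to Gripap1, Gyg and Slc12a4 (0.08, 0.08 and 0.09). Prom1 was nearest to Pafah2, Soat1 and Gpc2 (0.13, 0.17 and 0.19), and Rest to Tmem57, Setd5 and Asns (0.06, 0.10 and 0.11). These likenesses are over 6 libraries, which share the split in Rn45s share described above.

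Other radial glia and neural stem cell genes, 30 listed and 29 tested, had 22 members above and 7 below WT in the knockout, a median log2 fold change of 0.38 beside -0.01 over all genes, and 0 passed. The count higher was between 20 and 24 with single libraries or with WT replicates 1 and 2 left out. Groups did not overlap for 8 of the 29, all higher, where 12.3% of all genes were. Nr2e1, the nuclear receptor Tlx that keeps neural stem cells dividing, had 20.0, 25.1 and 21.8 CPM in the knockout libraries and 7.44, 6.39 and 12.3 CPM in WT (log2 fold change 1.31, SE 0.367, edgeR adjusted p 0.212). Fgfr3, a fibroblast growth factor receptor of progenitors and astrocytes, had 166, 180 and 205 CPM in the knockout and 128, 96.7 and 104 CPM in WT (0.74, SE 0.248). Gli3, a Hedgehog pathway transcription factor, had 11.3, 11.7 and 11.2 CPM in the knockout and 3.57, 5.60 and 5.45 CPM in WT (1.24, SE 0.418). In each of these 3 the knockout libraries lay above every WT library, also above WT replicate 3, and none passed. These 3 were named for their small p in this list, which favours separated groups, so the separation is no further support. The defining stem cell factor Sox2 had a log2 fold change of -0.23 (SE 0.323, adjusted p 0.745), and the radial glial glutamate transporter gene Slc1a3 0.02 (SE 0.390, 0.982). Among 8 tested of 10 outer radial glia genes named from human cortex, 4 stood higher and 4 lower with a median of 0.03 (log2), and 0 passed. The 4 with the smallest p were Stat3, Tnc, Ptprz1 and Moxd1, with log2 fold changes of 0.41, 0.38, 0.27 and -0.44.

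Of 16 intermediate filament proteins and their linkers 12 were tested, of which 3 lay above and 9 below WT in the knockout. Of all genes 50.3% lay below. The median log2 fold change was -0.60, and 0 passed. Krt18, an epithelial keratin also made in hepatocytes, had 0, 3 and 2 reads in the knockout libraries and 16, 13 and 12 in WT (edgeR adjusted p 0.197). Lmnb1, the nuclear lamin B1, averaged 280 ± 53.7 CPM in the knockout and 415 ± 87.6 CPM in WT (SD, n = 3 each; log2 fold change -0.57, SE 0.277, adjusted p 0.342). The other 2 genes with the smallest p were the neurofilament gene Nefm (log2 fold change -0.89) and Lmna (-0.62).

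Of 21 REST cofactors and turnover factors, all tested, 11 stood higher and 10 lower, the median was 0.09 (log2) and 0 passed. Smarca4, the ATPase Brg1 of chromatin remodelling complexes, averaged 278 ± 18.5 CPM in the knockout and 470 ± 104 CPM in WT (log2 fold change -0.76, SE 0.263). Ehmt2, the histone H3 lysine methyltransferase G9a, averaged 32.2 ± 2.76 CPM in the knockout and 87.0 ± 73.3 CPM in WT, where WT replicate 2 stood at 171 CPM and the others at 53.3 and 36.5 CPM (-1.40, SE 0.507). Hmg20b, a CoREST complex subunit, had -0.92 (SE 0.348), and Rcor2, a CoREST paralog of neural progenitors, 0.68 (SE 0.319). The edgeR adjusted p values of these 4 lay between 0.239 and 0.328. Of 26 listed symbols of neuronal genes with REST sites, 25 had a row in the table and 16 were tested. The symbol without a row was Scn2a, while Scn2a1, also listed, was tested. Of the 16 tested, 4 stood higher and 12 lower, where 50.3% of all genes stood lower. The median was -0.43 (log2), and 0 passed. Stmn3, a microtubule-destabilizing stathmin of neurons, had 23.0, 31.2 and 34.2 CPM in the knockout libraries and 68.2, 102 and 45.2 CPM in WT (log2 fold change -1.27, SE 0.347, adjusted p 0.212). The synaptic genes Syp and Cplx1 had -1.63 (SE 0.862) and -0.79 (SE 0.447), and Sez6 -0.43 (SE 0.252).

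Of 11 Musashi targets and partners 9 were tested, with 4 higher, 5 lower and a median of -0.04 (log2), and 0 passed. Cdkn1a, the cell cycle inhibitor p21 and a known Musashi-1 target, averaged 459 ± 126 CPM in the knockout and 668 ± 294 CPM in WT (SD, n = 3 each; log2 fold change -0.54, SE 0.382). Tspan3, Dcx and Tgfbr1 had log2 fold changes of 0.62, 0.67 and 0.39. Among 20 tested of 22 other RNA-binding proteins of neural cells, 17 stood higher and 3 lower, where 49.7% of all genes stood higher. The median was 0.21 (log2), and 0 passed. Counts of direction in this list, the intermediate filament list and the list of REST sites were not repeated with libraries left out. Qk, the quaking RNA-binding protein of glial progenitors, had 1072, 1493 and 1221 CPM in the knockout libraries and 543, 514 and 986 CPM in WT (0.89, SE 0.331, edgeR adjusted p 0.248). Ptbp1, the splicing repressor of progenitors, had 41.1, 28.2 and 35.9 CPM in the knockout and 63.7, 107 and 56.5 CPM in WT (-1.10, SE 0.323, adjusted p 0.220). Elavl3 and Igf2bp1 had 0.91 (SE 0.375) and 1.34 (SE 0.619).

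Partners and relatives of Fabp7, Prom1, Pdpn and Hopx, 14 listed and 11 tested, stood higher for 5 and lower for 6 with a median of -0.18 (log2), and 0 passed. Cd9, a tetraspanin that binds podoplanin, had 74.5, 108 and 84.3 CPM in the knockout libraries and 64.0, 17.6 and 45.2 CPM in WT (log2 fold change 1.04, SE 0.405, edgeR adjusted p 0.262). Cd44, the hyaluronan receptor, had 0.77 (SE 0.353), Ttyh1, a membrane protein of neural stem cells, 0.59 (SE 0.332), and Msn, the moesin gene, -0.48 (SE 0.301).

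**Figure D4:**
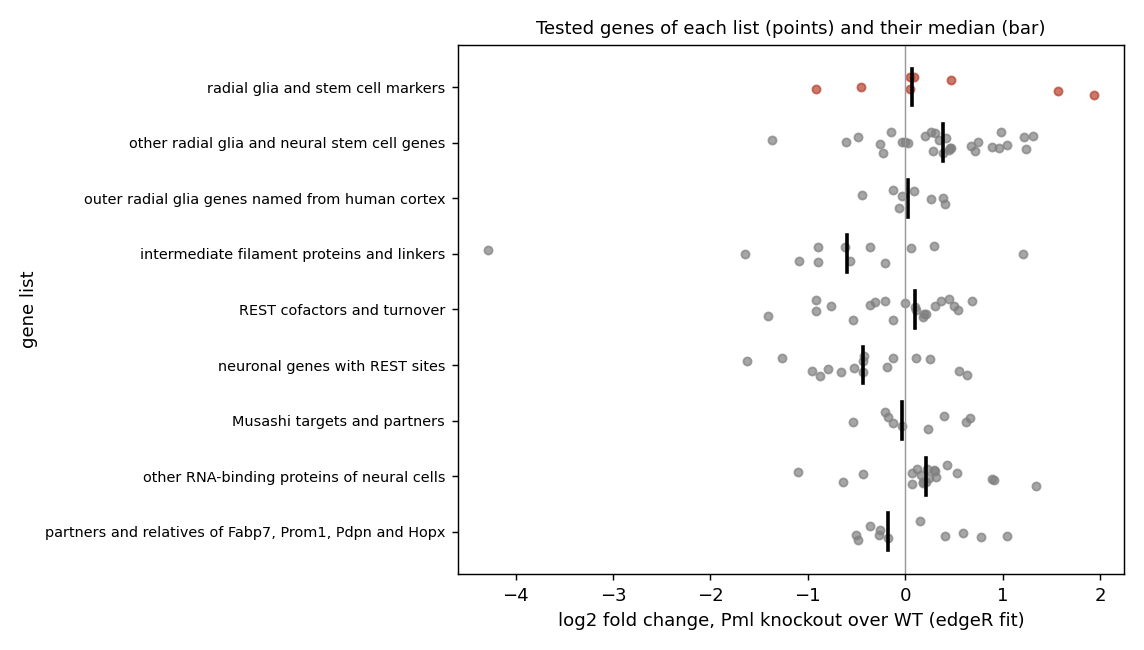
Log2 fold change, Pml knockout over WT, of the tested genes of each list (points) with the list's median (black bars); the vertical scatter within a row has no meaning. The 8 radial glia and stem cell markers (red) have a median of 0.07 and run from -0.92 for Pdpn to 1.94 for Fabp7.

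Markers of other cell types were read beside these genes. Neuronal markers, 10 genes, summed to 612 to 682 CPM in the knockout libraries and 477 to 697 CPM in WT, and intermediate progenitor markers, 8 genes, to 117 to 148 and 92.7 to 114 CPM. Astrocyte markers, 9 genes, summed to 1298 to 1711 CPM in the knockout and 731 to 2825 CPM in WT, and oligodendrocyte lineage markers, 8 genes, to 1644 to 2101 and 1161 to 2050 CPM. Ependymal markers, 6 genes, summed to 9.56 to 19.5 CPM in the knockout and 9.08 to 19.2 CPM in WT. Cells that can share Vim and Pdpn with radial glia gave few reads: mesenchymal, meningeal and pericyte markers, 10 genes, summed to 14.0 to 40.7 and 13.6 to 39.3 CPM, and endothelial markers, 8 genes, to 10.6 to 15.9 and 4.54 to 12.5 CPM, with Cdh5, Cldn5, Tek, Emcn and Ly6c1 at 0 in all libraries. Microglia and macrophage markers, 8 genes, summed to at most 2.11 CPM in the knockout and to 33.6 CPM in WT replicate 2, the library in which Pdpn was highest, and their part in that value was not tested. Erythroid markers, 8 genes, summed to at most 0.451 and 0.595 CPM, with the 6 globin genes at 0. All 27 tested hepatocyte markers stood lower in the knockout, and 0 passed. Their sum was highest in WT replicate 2. In that library Fabp7, Hopx and Nes had their lowest values, and Pdpn, Prom1 and Rest their highest. Sox2, Sox9 and Slc1a3 were also highest there, while Pax6, Hes1 and Nr2e1 were lowest there. Any link of these values with the hepatocyte reads was not tested.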

How the data were processed

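RNA of 6 libraries was read from the 3′ end of mRNA (QuantSeq forward kit), per the labels' protocols. The authors deposited whole-number read counts per gene symbol, not normalized. Per the submitters' processing notes they used FastQC, HISAT2, HTSeq, edgeR and mm10; their versions, the annotation and any strand option were not given in the sources used here. Per the file headers the deposited table also holds normalized scores (counts scaled and rounded, not used here), a log2 fold change and a p-value with its adjusted form, quoted only as the authors'. Per-sample columns left without a sample numbered 0.

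Counts were fitted in R 4.3.3 with edgeR 4.0.16: default filter (count minimum 10, total 15), TMM factors, robust quasi-likelihood test, no covariate, Benjamini-Hochberg over 11317 genes. The SE is the log2 fold change divided by the square root of F. Log2 CPM used a prior count of 2. Other settings used DESeq2 1.42.0 and limma 3.58.1. The test was checked on simulated data, where it rarely recovered 2-fold changes. Gene positions are from GENCODE M21 (GRCm38, the assembly of mm10), promoters from RefSeq (GRCm38.p6). Replicates of a group differed by more than sampling noise (chi-square per degree of freedom 9.67 to 68.5). The 4 genes with the smallest p were named per list (1 of them is not reported here), 3 nearest profiles per member, and all members; the 7 radial glia genes that check the cell type label, Sox2 and Slc1a3 among them, were picked after their values were seen. The members and lists were chosen with earlier results of these data known. A ratio of Msi1 to Msi2 was planned and left out because Msi1 had at most 5 reads. Intervals and floors cover counting error only. The counts of members and of other radial glia genes with libraries left out were added after the data were seen. Gene lists other than the members numbered 18, of which 10 were cell type markers.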

Additional observations from a re-analysis of the deposited data

How the results depend on the processing

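Of all tested genes, 1 was called with all 6 libraries. The number called was 0 with RLE factors, library totals, a minimum of 5 CPM, limma voom or without Rn45s, 3 with no count filter, 328 by DESeq2 and 359 by the exact test of edgeR. Quality weights in voom gave 1242, and dropping both WT replicates 1 and 2 gave 142. It ran from 0 to 1526 with single libraries left out, the 1526 (589 higher, 937 lower) without WT replicate 3. Calls of genes and members with WT replicate 3 as the only WT library are left out, because the spread of WT cannot be measured there. Members called numbered 0 with all libraries and 1 with weighted voom (Fabp7). With single libraries left out the count was 0 or 1, the 1 being Fabp7 without WT replicate 3. With the replicate number as a block, 2 genes were called and 0 members. Deviations from the group mean correlated at -0.00254, 0.07 and 0.19 between same-numbered libraries. Between differently numbered libraries they correlated at -0.18 to 0.09. Centring within groups of 3 limits such values, so they cannot show whether the libraries were paired.

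The direction changed for Vim (-0.00734 without knockout replicate 1), for Prom1 (-0.08 without knockout replicate 1, -0.22 without WT replicate 1 and -0.05 without WT replicate 3) and for Rest (-0.00529 with weighted voom, -0.10 without knockout replicate 1 and -0.11 without WT replicate 3). With single libraries left out, Vim reached 0.12, Prom1 0.68 and Rest 0.27 at the highest, all without WT replicate 2. Fabp7, Hopx, Msi2, Nes and Pdpn kept theirs in all 20 alternatives. The ratio of Nes to Vim ran from -0.90 to 0.13 with single libraries left out. Members higher in the knockout numbered 3 to 6, and other radial glia genes 20 to 23, with single libraries left out. Library totals moved the median of all genes to 0.43 (log2); relative to it Fabp7 stood at 1.80, Hopx at 1.52 and Pdpn at -0.79. Depth limits Hopx, with 2 reads in WT replicate 2, and Msi1.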

Other observations

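Fabp7 relative to Vim, both genes of the radial glial cytoplasm, amounted to 20.5, 75.00 and 51.3 Fabp7 reads per 100 Vim reads in knockout replicates 1, 2 and 3, and to 11.8, 2.29 and 25.9 in WT replicates 1, 2 and 3. Knockout replicate 1 lay below WT replicate 3 on this measure. This ratio was taken after the values were seen and was not tested.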
